A study of Rattus norvegicus with 12 samples.

Results

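The genes described here were 10 activity-responsive genes of neurons, the AP-1 and related bZIP factors FOS, FOSL1, FOSL2, JUN, JUNB, ATF3 and MAFF and the neuronal immediate early genes ARC, NR4A1 and HOMER1. They were found by single gene symbol in the annotation of the array, which gave 13 of 9600 clones and 10 of 6284 named genes. JUNB had 3 clones (spots 270, 320 and 8661), JUN had 2 (spots 1486 and 9139) and each of the other 8 genes had 1. Clones carry human gene symbols in the annotation, but the species and sequence of the spotted cDNA are not given in the sources used here, and related genes such as JUN and JUNB could cross-hybridize.

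RNA came from hippocampal neurons of Sprague-Dawley rat embryos (day 18.5) kept in culture for 12 days over a feeder layer of glia. Before any treatment, every culture spent 3 h in Block, a mixture of 50 µM APV and 40 µM CNQX, which inhibit glutamate receptors, and 100 nM tetrodotoxin, which inhibits sodium channels. Transcription was stopped in 6 of the 12 cultures with 25 µM actinomycin D (ActD), so that changes in mRNA stability could be read without new synthesis. The arrays thus held BiC/4AP + ActD, Block + ActD, BiC/4AP and Block, each at 5, 30 and 60 min, with BiC/4AP standing for 50 µM bicuculline, an inhibitor of GABA-A receptors, together with 500 µM 4-aminopyridine, an inhibitor of potassium channels. According to the labels these are treatment times, whereas the methods of the study describe a stimulus of 5 min with later harvests. The meaning of 30 and 60 min thus differs between the sources. Per the study, the blockers were washed out when BiC/4AP was added, whereas Block cultures were kept in them. Cultures without ActD received DMSO. BiC/4AP minus Block thus compares stimulation after washout with continued block. Each of the 12 conditions had 1 nylon array of RNA pooled from 3 coverslips per the labels, and the methods describe RNA combined from separate experiments. All arrays are labelled biological replicate 2, and no other replicate was among them. With no condition repeated here, the p-values below measure the disagreement between times and treatment arms.

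Immediate early genes are transcribed within minutes of synaptic input without new protein synthesis, through factors such as CREB and SRF that are already bound near their promoters. FOS and JUN proteins pair through leucine zippers to form AP-1, which switches on later genes, and many of these transcripts carry AU-rich elements and decay quickly. In hippocampal neurons FOS, ARC and NR4A1 are used as marks of recently active cells.

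The cAMP response element (CRE, TGACGTCA, palindromic) is the site that CREB binds, and its core TGACG was searched on both strands of the promoter windows, where every CRE also counts as a core. Promoter windows from 250 bases before to 50 after the start site were taken from RefSeq (rat build GRCr8), and 6 of the 10 genes matched, namely Fosl1, Fosl2, Junb, Maff, Nr4a1 and Homer1. The CRE occurred in 1.83% of 33469 rat promoters of this length and the core in 21.2%. Maff held the full CRE, Nr4a1 held 4 cores, Fosl1 held 2 and Junb held 1, while these letters were not in the windows of Fosl2 and Homer1. The stretches of 30 bases below show the element in Maff and the core nearest the start site in the other 3 genes, 5′ to 3′ on the plus strand with the motif in capitals.
Maff (chr7:112792725-112792754, CRE at -51): cgctggggcggTGACGTCActgcatgactg
Nr4a1 (chr7:134260073-134260102, core on the opposite strand at -53): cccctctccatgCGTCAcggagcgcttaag
Fosl1 (chr1:212183789-212183818, core on the opposite strand at -84): tatgggcagctgCGTCAgagggggcgtggc
Junb (chr19:40080959-40080988, core at -155): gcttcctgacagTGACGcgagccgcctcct

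All 13 clones were measured on all 12 arrays. Each was brighter than the 95th percentile of the blank spots on 12 of 12 arrays. None held the placeholder value of 10 that the image software wrote for some spots. On the 5 min arrays and some of the 30 min arrays that percentile was itself 10. There the check shows only that a clone was not at the placeholder. Raw intensity lay between 10.79 and 92.46 for 11 clones, between 102.71 and 305.1 for HOMER1 and between 870.14 and 1362.94 for FOSL2. JUNB spots 270 and 8661 fell in the dimmest 25% of clones. FOS, ATF3 and ARC lay just above the cut of that group, with mean intensities of 34.63, 32.64 and 32.86 against 32.33. Array medians ran from 24.53 to 31.765 at 5 min, from 37.44 to 58.515 at 30 min and from 53.53 to 69.755 at 60 min, so levels were compared after each array's log2 intensities had been centred and divided by their SD and multiplied by the mean SD of 1.75. Values on this scale (scaled log2) are relative to the other clones of the same array. The 30 min BiC/4AP array had the lowest median correlation with the other arrays, 0.913, against 0.926 to 0.95 for the rest. Of the measured markers of neurons, 10 of 11 were above the blank spots on all arrays. The counts were 6 of 8 for astrocytes, 6 of 6 for microglia, 3 of 5 for oligodendrocytes and 6 of 7 for fibroblasts or vessels. Among all 6284 named genes 5495 were above them, so these counts do not show which cell types were present.

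**Figure D1:**
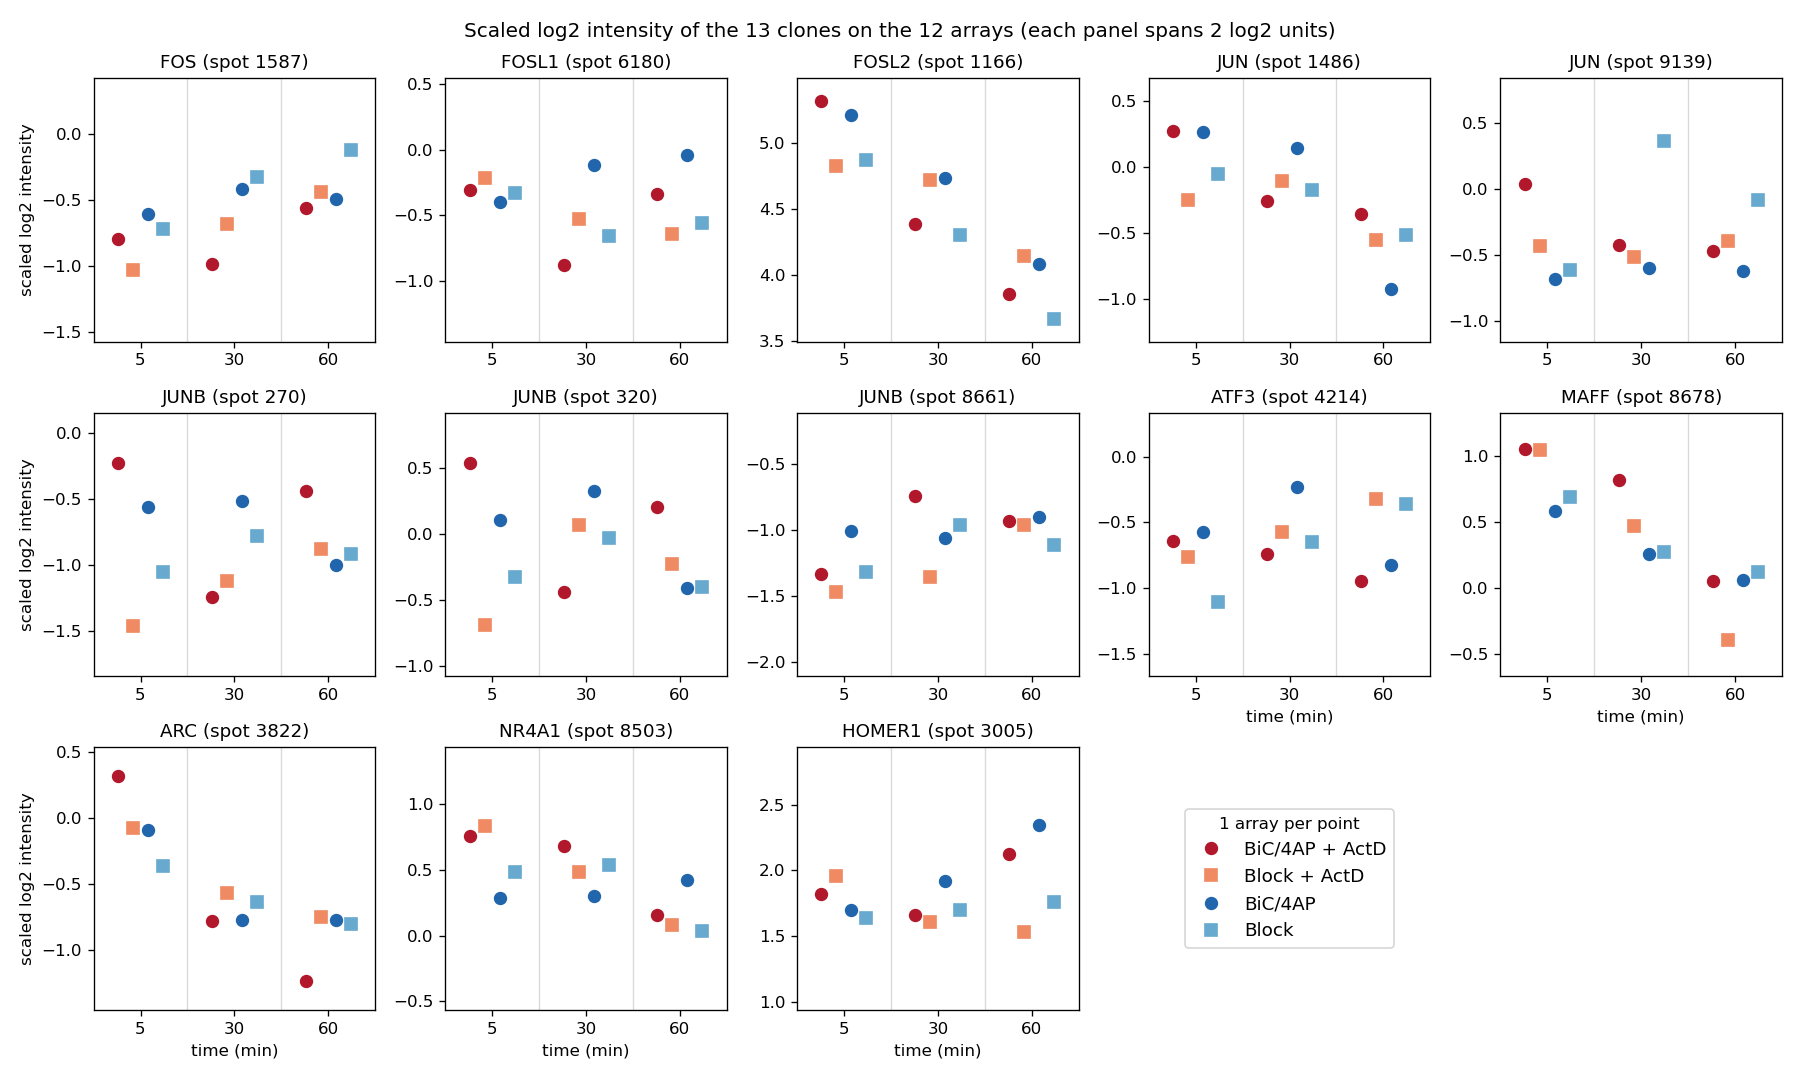
Scaled log2 intensity of each clone on the 12 arrays, plotted against time in min, with 1 point per array, circles for BiC/4AP and squares for Block, red tones with ActD and blue tones without. Each panel spans 2 log2 units, and FOSL2, MAFF, ARC and JUN spot 1486 are lower at 60 min than at 5 min in all 4 arms whereas BiC/4AP and Block points interleave for most clones.

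Stimulation with BiC/4AP was followed by no change in these 10 genes that passed the test. Over all times, 9 of the 13 clones lay above 0 for BiC/4AP minus Block, with a median of 0.13 (scaled log2) and a range of -0.18 for JUN spot 9139 to 0.37 for JUNB spot 270, and none was called. Over all clones the median was -0.01 and 47.8% lay above 0. The limma test with Benjamini-Hochberg adjustment over 9600 clones called 0 clones (0%) over all times, and likewise 0% with ActD alone, without ActD alone, for the difference between those arms, and at 5, 30 or 60 min alone. At an unadjusted p under 0.05 there were 448 clones over all times, 193 with ActD, 528 without ActD, 248 for the difference between arms, and 461, 949 and 481 at 5, 30 and 60 min, of which the members made up 0, 0, 1, 0, 2, 0 and 2. The smallest adjusted p of any member in these comparisons was 0.71. Without the 30 min BiC/4AP + ActD array 1162 clones were called at 30 min, and the smallest adjusted p of a member there was 0.35. Because the RNA is from whole cultures, fewer cells of a type and less RNA per cell cannot be told apart.

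Single pairs of arrays were also described by the z-fold, the BiC/4AP minus Block difference in units of the SD that this difference had among all clones, with 1.4 as the limit used in the methods of the study. Of 78 member values in 6 pairs, 45 were above 0 and 3 were past 1.4 in size. With ActD, the share of all clones past 1.4 was 8.96% at 5 min, 6.43% at 30 min and 9.12% at 60 min, and the members past it numbered 2, 0 and 0 of 13. Without ActD the share of all clones was 7.06% at 5 min, 10.9% at 30 min and 8.18% at 60 min, against 0, 1 and 0 members. No member was past 1.4 in the same direction with and without ActD, which 1.2% of all clones were at 5 min, 1.22% at 30 min and 1.6% at 60 min. With 1 array against 1, z-folds carry no test.

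**Figure D2:**
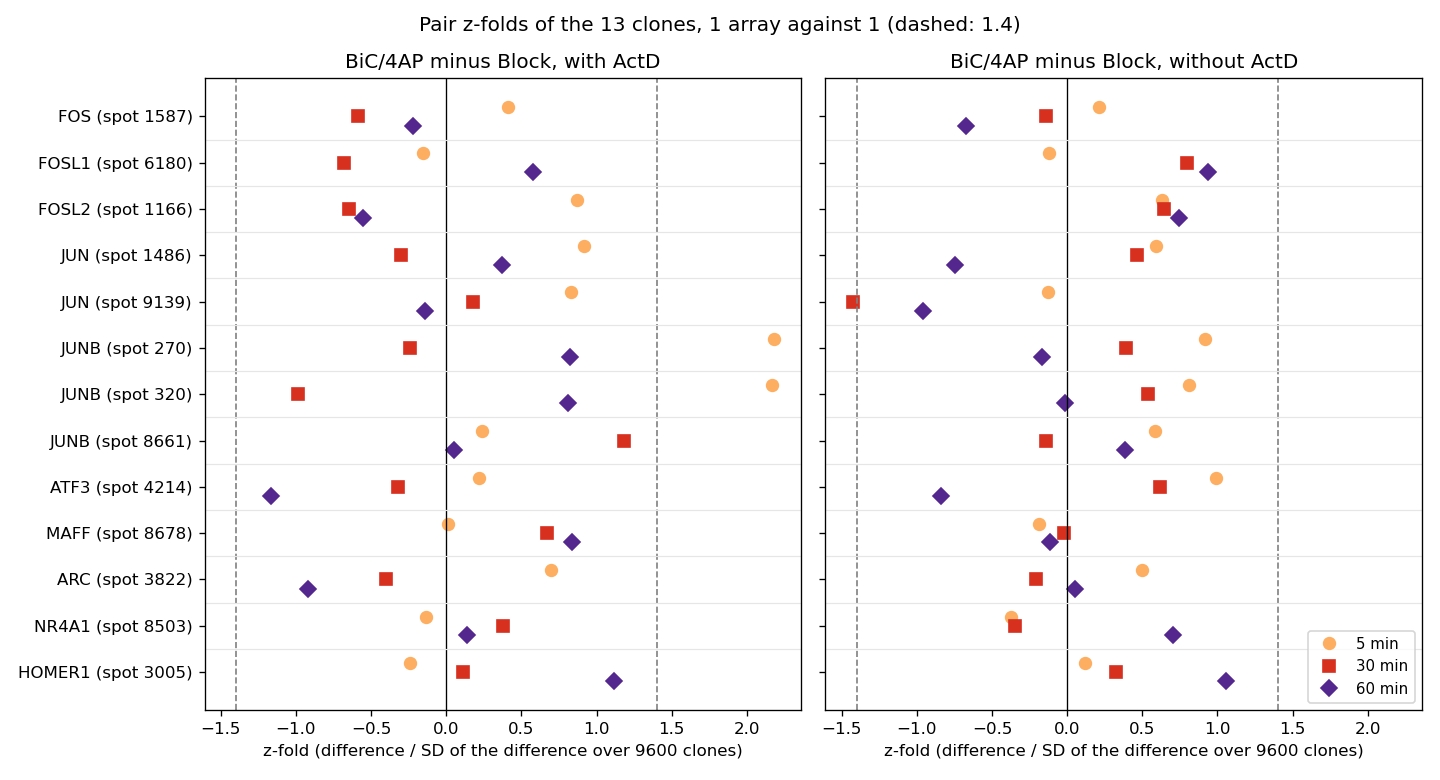
z-fold of each of the 13 clones (rows) for BiC/4AP minus Block with ActD (left) and without ActD (right), 1 array against 1, at 5 min (circles), 30 min (squares) and 60 min (diamonds), with dashed lines at 1.4 in either direction. Only JUNB spots 270 and 320 at 5 min with ActD (2.18 and 2.17) and JUN spot 9139 at 30 min without ActD (-1.43) lie past the lines.

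FOS, the founding partner of JUN in AP-1 and the most used mark of neuronal activity, was not higher after BiC/4AP beyond the spread. Its clone was dim, at percentiles 19.83 to 48.08 of the arrays and at 14.87 to 22.05 raw intensity at 5 min. The 95th percentile of the blank spots was 10 there. With so dim a clone, the lack of a difference does not show a lack of response. The scaled log2 value of FOS at 5 min was -0.80 in BiC/4AP + ActD and -1.03 in Block + ActD, and -0.61 in BiC/4AP and -0.72 in Block. At 30 min it was -0.98 in BiC/4AP + ActD and -0.68 in Block + ActD, and -0.42 in BiC/4AP and -0.32 in Block. At 60 min it was -0.56 in BiC/4AP + ActD and -0.44 in Block + ActD, and -0.49 in BiC/4AP and -0.12 in Block. The BiC/4AP array was thus the higher one in both pairs at 5 min and the lower one in the other 4 pairs. Over all times the difference was -0.09 ± 0.13 (SE, 6 arrays against 6, limma adjusted p = 0.89).

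FOS was also the member with the smallest unadjusted p for ActD. It averaged -0.75 ± 0.23 (SD) in the 6 arrays with ActD and -0.45 ± 0.21 in the 6 without, and the array with ActD was lower in 6 of 6 matched pairs. The fitted difference was -0.30 ± 0.13 (SE) with an unadjusted p of 0.031 and a limma adjusted p of 0.99. No clone was called for ActD (0% of 9600, with 225 at an unadjusted p under 0.05), and this scale shows only changes relative to the other clones. With medians of print position removed the FOS difference was -0.16. The other 12 clones differed by -0.14 to 0.18 between arrays with and without ActD.

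FOSL1 and FOSL2 (FRA-1 and FRA-2) lack the strong activation domain of FOS and extend AP-1 activity after FOS has decayed. FOSL1 differed by -0.09, -0.35 and 0.30 with ActD at 5, 30 and 60 min, and by -0.06, 0.54 and 0.52 without ActD. Its mean difference was -0.05 ± 0.20 (SE) with ActD and 0.33 ± 0.20 without ActD, where leaving out single arrays gave 0.20 (30 min BiC/4AP) to 0.54 (5 min BiC/4AP). FOSL2, the brightest of the 13, differed by 0.49, -0.34 and -0.29 with ActD, and by 0.34, 0.44 and 0.41 without ActD. Without ActD the BiC/4AP array was higher in 3 of 3 pairs for FOSL2, with a mean difference of 0.40 ± 0.19 (SE, unadjusted p = 0.06, limma adjusted p = 0.79). With quantile normalization this value was 0.12, with dim clones left out 0.24 and with print position removed 0.27. With ActD the FOSL2 difference was -0.05 ± 0.19 (adjusted p = 1). The difference between the arms, -0.44 ± 0.28 (SE), was not called by limma (adjusted p = 1).

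JUNB, an AP-1 subunit that competes with JUN for partners, gave the largest pair differences among the members. At 5 min, spot 270 read 23.81 in BiC/4AP + ActD against 10.99 in Block + ActD, and 22.73 in BiC/4AP against 17.37 in Block (raw intensity). The value of 10.99 lay close to the background limit, which was 10 on the 5 min arrays. Spot 320 read 41.06 in BiC/4AP + ActD against 18.86 in Block + ActD, and 36.32 in BiC/4AP against 28.71 in Block. After scaling the differences were 1.23 for both clones with ActD, and 0.49 and 0.44 without ActD. Spot 8661, the third JUNB clone, did not show this, with 10.79 in BiC/4AP + ActD against 10.92 in Block + ActD and scaled differences of 0.14 with ActD and 0.31 without ActD. Both of its readings with ActD also lay close to the limit of 10, so this clone may not have been able to show a difference. Averaged over both arms at 5 min, the difference was 0.86 ± 0.30 for spot 270, 0.83 ± 0.29 for spot 320 and 0.22 ± 0.25 for spot 8661 (SE, 2 arrays against 2), with unadjusted p of 0.013, 0.014 and 0.39 and limma adjusted p of 0.97, 0.97 and 0.98. The Block + ActD array at 5 min held the lowest scaled value of spots 270 and 320 among the 12 arrays, -1.46 and -0.69. Without that array the differences of these 2 clones were 0.68 and 0.59.

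The JUNB clones did not agree among themselves, though spot 8661 was close to background at 5 min, with 10.79 to 16.66 in raw intensity. With time means removed, spots 270 and 320 correlated at r = 0.95 over the 12 arrays, whereas spot 8661 correlated with them at 0.22 and 0.02. Spots 270 and 320 lie at the same position (20) of print blocks 11 and 13, and with medians of print block and position removed, an alternative chosen after the values were seen, their r was 0.67. Over 2264 pairs of clones of 1 gene the median r was 0.14, a figure that covers named clones outside the dimmest 25% and thus leaves out JUNB spots 270 and 8661. JUN spot 1486 correlated with JUNB spots 270 and 320 at 0.85 and 0.85, and at 0.39 and 0.13 with print position removed. The arrays share scaling and print layout, so these are descriptions.

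JUN, the partner through which FOS proteins bind DNA, had clones that differed from each other (r = 0.07 over 12 arrays). Spot 1486 differed between BiC/4AP and Block by 0.52, -0.16 and 0.20 with ActD at 5, 30 and 60 min, and by 0.32, 0.32 and -0.41 without ActD. Spot 9139 differed by 0.47, 0.09 and -0.07 with ActD, and by -0.07, -0.96 and -0.53 without ActD. The raw intensity of spot 9139 at 30 min was 32.4 in BiC/4AP and 81.88 in Block, the highest of its 12 values, against 38.08 in BiC/4AP + ActD and 28.61 in Block + ActD. Over the 3 pairs without ActD spot 9139 differed by -0.52 ± 0.23 (SE, unadjusted p = 0.04, limma adjusted p = 0.79), below 0 in 3 of 3 pairs. The value was -0.25 without the 30 min Block array, which held the 81.88, -0.82 without the 5 min Block array and -0.49 without the 30 min BiC/4AP array. Spot 1486 gave 0.07 ± 0.21 for the same comparison and -0.06 without the 30 min BiC/4AP array.

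**Figure D3:**
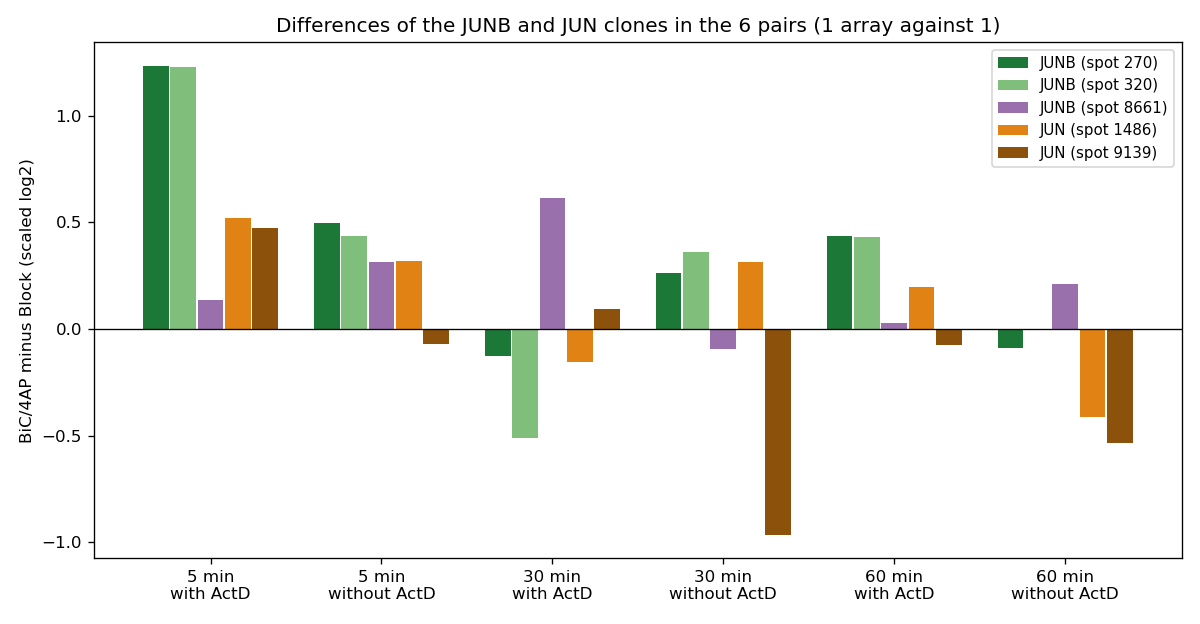
BiC/4AP minus Block difference (scaled log2) of the 3 JUNB and 2 JUN clones in the 6 pairs, 1 array against 1, ordered by time with the ActD pair left of the pair without ActD. JUNB spots 270 and 320 stand at 1.23 in the 5 min pair with ActD, where JUNB spot 8661 stands at 0.14, and JUN spot 9139 stands at -0.96 at 30 min without ActD, where JUN spot 1486 stands at 0.32.

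ATF3, a stress- and activity-induced bZIP factor that often represses transcription, stood on opposite sides of its Block arrays at 5 and 60 min. At 5 min it read -0.64 in BiC/4AP + ActD against -0.76 in Block + ActD, and -0.57 in BiC/4AP against -1.10 in Block (scaled log2). At 30 min it read -0.74 in BiC/4AP + ActD against -0.57 in Block + ActD, and -0.23 in BiC/4AP against -0.65 in Block. At 60 min it read -0.95 in BiC/4AP + ActD against -0.33 in Block + ActD, and -0.82 in BiC/4AP against -0.36 in Block. The BiC/4AP arrays were the higher ones in both pairs at 5 min and the lower ones in both pairs at 60 min. Both BiC/4AP arrays lay below both Block arrays at 60 min, as they did for 18.4% of all clones and for 3 of the 13 members (ATF3, FOS and JUN spot 9139). The 60 min difference was -0.54 ± 0.24 (SE, 2 arrays against 2, unadjusted p = 0.038, limma adjusted p = 0.93). The change of the difference between 5 and 60 min, a contrast added after the pair values were seen, was -0.87 ± 0.33 (SE, unadjusted p = 0.022, limma adjusted p = 0.97).

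MAFF, a small MAF protein without an activation domain and the gene with the full CRE shown above, differed by 0.01, 0.35 and 0.44 with ActD at 5, 30 and 60 min. Without ActD it differed by -0.10, -0.01 and -0.06. The mean difference was 0.26 ± 0.20 (SE) with ActD and -0.06 ± 0.20 without ActD, above 0 in 3 of 3 pairs with ActD and in 0 of 3 without. Leaving out 1 Block + ActD array turned the value with ActD into 0.060 (that of 60 min) or 0.43 (that of 5 min), and leaving out the BiC/4AP + ActD array of 30 min turned it into 0.17. The difference between the arms was 0.32 ± 0.28 (SE, limma adjusted p = 1).

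ARC encodes a postsynaptic protein that promotes the removal of AMPA receptors, and its mRNA is carried into dendrites. ARC read 0.32 in BiC/4AP + ActD against -0.07 in Block + ActD at 5 min, and -0.09 in BiC/4AP against -0.36 in Block (scaled log2). At 30 min it read -0.78 in BiC/4AP + ActD against -0.57 in Block + ActD, and -0.78 in BiC/4AP against -0.63 in Block. At 60 min it read -1.24 in BiC/4AP + ActD against -0.75 in Block + ActD, and -0.78 in BiC/4AP against -0.80 in Block. The BiC/4AP arrays were the higher ones at 5 min and the lower ones at 30 min, and the difference over all times was -0.02 ± 0.15 (SE, limma adjusted p = 0.98).

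NR4A1 (Nur77), an orphan nuclear receptor induced by depolarization, differed by -0.08, 0.20 and 0.07 with ActD at 5, 30 and 60 min, and by -0.20, -0.23 and 0.39 without ActD. Over all times its difference was 0.03 ± 0.13 (SE, limma adjusted p = 0.98), the smallest in size but for ARC among the 13 clones.

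HOMER1, a postsynaptic scaffold that links metabotropic glutamate receptors to calcium stores, gave nearly equal differences in both arms at 60 min. The gene makes a short activity-induced form and long constitutive forms, and which of them the clone reads is not given in the sources used here. At 60 min its raw intensity was 274.58 in BiC/4AP + ActD against 168.72 in Block + ActD, and 305.1 in BiC/4AP against 244.17 in Block. The scaled differences at 60 min were 0.59 with ActD and 0.59 without ActD, while they were -0.14 and 0.06 at 5 min and 0.06 and 0.22 at 30 min. Both BiC/4AP arrays lay above both Block arrays at 60 min, as they did for 19.8% of all clones and for 4 of the 13 members (HOMER1, FOSL1, NR4A1 and JUNB spot 8661). The fitted difference at 60 min was 0.59 ± 0.20 (SE, 2 arrays against 2, unadjusted p = 0.013, limma adjusted p = 0.92). Its z-folds at 60 min, 1.11 with ActD and 1.06 without ActD, were below 1.4, and they passed it in both arms when 16 was added before the logarithm (1.71 and 1.60) or dim clones were left out (1.60 and 1.57). The shares of all clones past 1.4 under those alternatives are not given here. With print position removed the fitted difference was 0.38. Over all times the HOMER1 difference was 0.23 ± 0.13 (SE, limma adjusted p = 0.78), above 0 in 5 of 6 pairs.

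**Figure D4:**
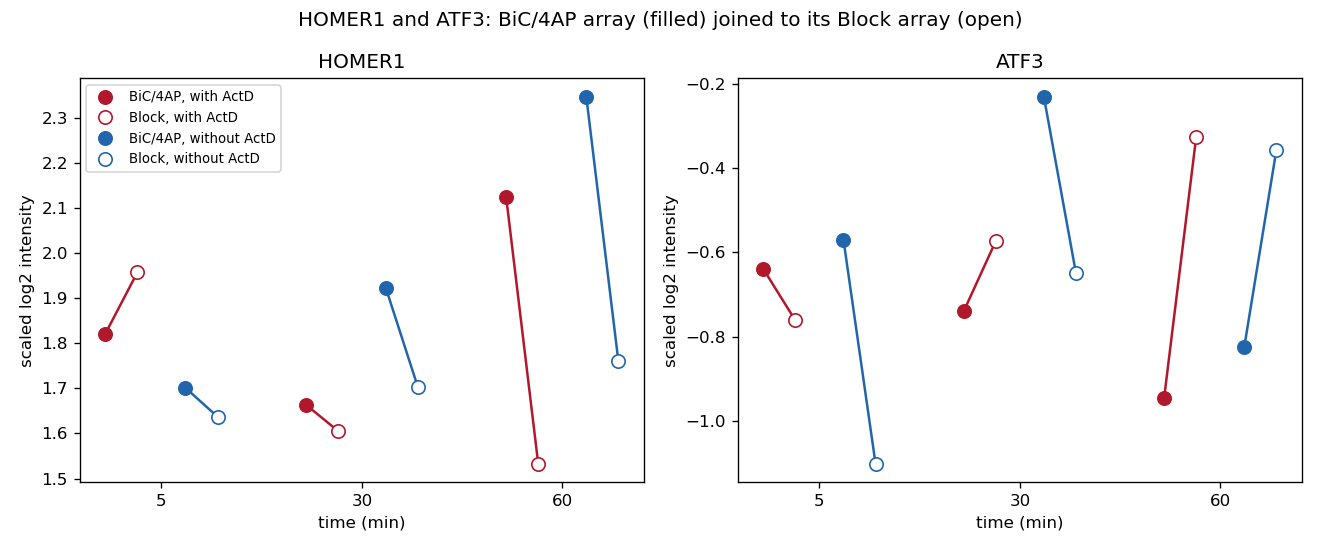
Scaled log2 intensity of HOMER1 (left) and ATF3 (right) at 5, 30 and 60 min, each line joining 1 BiC/4AP array (filled) to its Block array (open), red with ActD and blue without. At 60 min the filled HOMER1 points stand 0.59 above the open ones in both arms, and the filled ATF3 points stand 0.62 (with ActD) and 0.47 (without ActD) below the open ones.

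The members whose levels differed past the test did so between times. At 60 min against 5 min, 4 of 13 clones were called and all 4 were lower, FOSL2, MAFF, ARC and JUN spot 1486, against 18.1% of all clones called in either direction and 10.1% called lower. The values of FOSL2 at 60 min were 3.85, 4.15, 4.08 and 3.67 in BiC/4AP + ActD, Block + ActD, BiC/4AP and Block, against 5.32, 4.83, 5.22 and 4.88 at 5 min in the same order (scaled log2). Its difference was -1.12 ± 0.17 (SE, 4 arrays against 4, limma adjusted p = 0.00033). MAFF differed by -0.89 ± 0.17 (adjusted p = 0.0026), ARC by -0.84 ± 0.18 (adjusted p = 0.0055) and JUN spot 1486 by -0.65 ± 0.18 (adjusted p = 0.022). All 4 arrays at 60 min lay below all 4 at 5 min for each of these clones, as they did for 12.4% of all clones. NR4A1 (-0.42 ± 0.17, adjusted p = 0.096) and FOS (0.38 ± 0.16, adjusted p = 0.12, above 0 in 4 of 4 arms) did not pass. JUN spot 9139 differed by 0.03 ± 0.20, so the 2 JUN clones also disagreed here.

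These differences are relative to the array as a whole. Before scaling, the median log2 intensity of all clones was 1.09 higher at 60 min than at 5 min. FOSL2 averaged 928.4 at 60 min and 1124 at 5 min in raw intensity, a log2 difference of -0.26, whereas MAFF, ARC and JUN spot 1486 were brighter in raw terms, by 0.14, 0.22 and 0.40, and FOS by 1.44. Arrays were numbered in order of time, so time and array order cannot be told apart. With print position removed, MAFF (-0.45, limma adjusted p = 0.069) and ARC (-0.41, adjusted p = 0.21) were no longer called. JUN spot 1486 was no longer called without the 5 min BiC/4AP array (adjusted p = 0.092), the 5 min BiC/4AP + ActD array (0.088) or the 60 min BiC/4AP array (0.085), and NR4A1 was called without the last of these (adjusted p = 0.024). At 30 min against 5 min, 0.26% of all clones and 0 members were called, with ARC (-0.64 ± 0.18, adjusted p = 0.14) and FOSL2 (-0.52 ± 0.17, adjusted p = 0.18) the nearest.

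**Figure D5:**
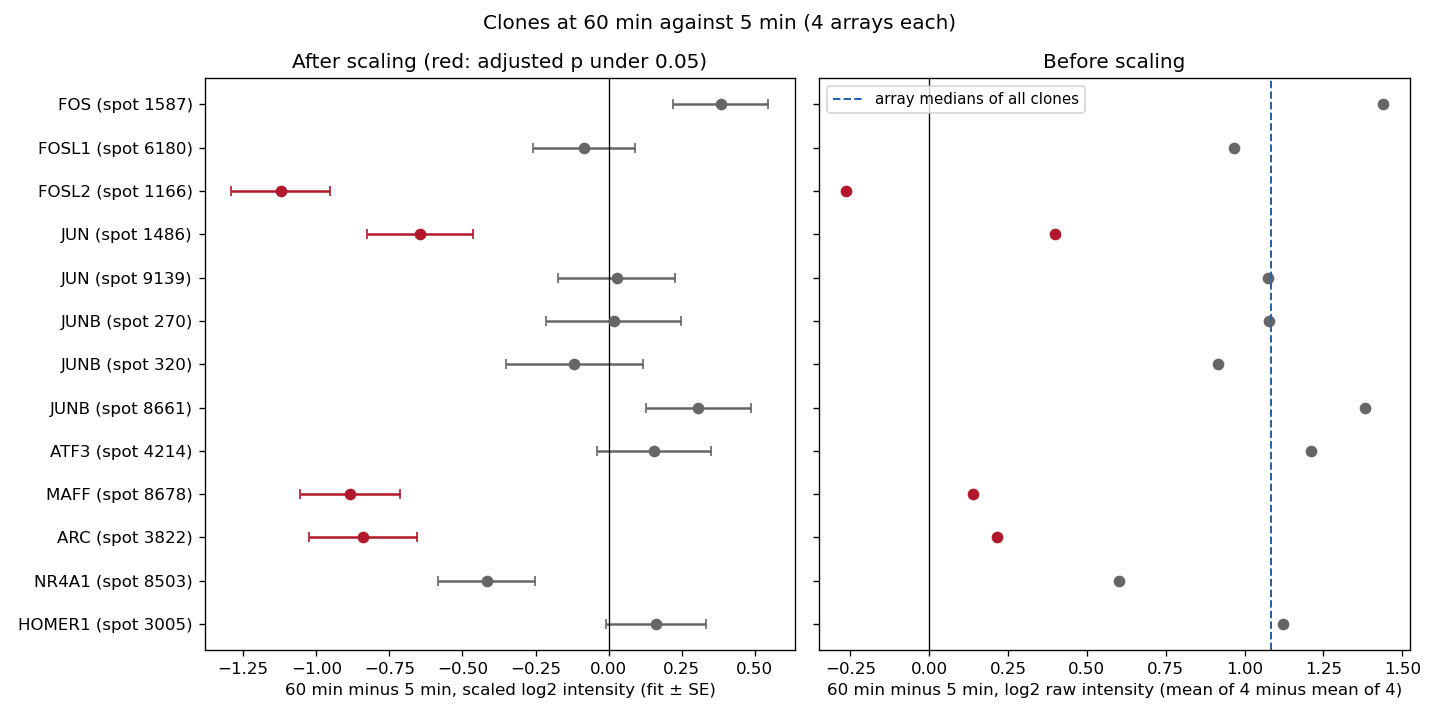
Difference between 60 min and 5 min for each clone, on the left in scaled log2 intensity with SE bars from the limma fit and on the right in log2 of raw intensity, 4 arrays against 4. The 4 clones called at an adjusted p under 0.05 (red) are FOSL2, MAFF, ARC and JUN spot 1486, and in raw terms only FOSL2 is below 0 while the dashed line marks the change of the array medians, 1.09.

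Genes related to these were read from lists of known family members and partners. Of 44 other bZIP genes of the AP-1, ATF/CREB, MAF and C/EBP families, 18 were measured, and none was called in either direction for BiC/4AP over all times, with 8 of 18 above 0 and a median of -0.03. ATF4, an integrated stress response factor, was the nearest to a rise, at 0.30 ± 0.15 (SE) with 6 of 6 pairs above 0 (limma adjusted p = 0.78), and CREB3, an endoplasmic reticulum factor, was at -0.24 ± 0.15 (adjusted p = 0.78). Of 39 kinases, factors and cofactors upstream of immediate early genes, 9 were measured and none was called, with 4 above 0 and a median of -0.02. Among these MEF2A, an activity-regulated transcription factor, was at 0.27 ± 0.13 (SE, adjusted p = 0.78) and CAMK4, a calcium-dependent kinase that phosphorylates CREB, at -0.22 ± 0.17 (adjusted p = 0.79). Of 36 partners of HOMER1, ARC and NR4A1, 10 were measured and none was called, with 6 above 0 and a median of 0.01. SH3GL1, an endophilin of the endocytic machinery, was at 0.26 ± 0.15 (SE, adjusted p = 0.78) and HOMER3 at -0.08 ± 0.12 (adjusted p = 0.89).

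Markers of the cell types in the culture were read beside these results. No marker was called for BiC/4AP, and the median over all times was 0.07 for neurons, 0.04 for astrocytes, -0.22 for oligodendrocytes, -0.02 for microglia and 0.14 for fibroblasts or vessels. At 30 min 1 of 11 neuron markers lay above 0 with a median of -0.36, while 8 of 11 did at 5 min (median 0.16) and 7 of 11 at 60 min (0.05). Of all 6284 named genes, 3064 lay above 0 at 30 min (median -0.007), 3005 at 5 min and 3160 at 60 min. The 30 min comparison held the BiC/4AP array with the lowest median correlation with the others, 0.913. At 60 min against 5 min, 3 of 8 astrocyte markers were called lower and 1 higher (median -0.46), and 0 of 11 neuron markers were called (median 0.03). Of the other markers, 1 of 5 for oligodendrocytes was called higher (median 0.33), 1 of 6 for microglia lower (median -0.22) and 2 of 7 for fibroblasts or vessels lower (median -0.045). Among all 6284 named genes, 588 were called higher and 750 lower (median 0.08). Their part in the values of the members was not tested.

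The clones whose time-centred values over the 12 arrays were most like those of 4 members were searched among 6247 named clones, with Pearson's r as the measure. They were GATM (r = 0.90) and CTHRC1 (0.87) for FOS, FCGRT (0.91) and MIF (0.83) for ARC, SGK3 (0.89) and ARF4 (0.89) for NR4A1, and BORCS6 (0.95) and LMO4 (0.92) for HOMER1. No member was among them, but the search left out the dimmest 25% of clones and thus JUNB spots 270 and 8661. Each r was picked from the highest of 6247 values over 12 arrays, so its size reflects that choice in part. Pairs of members of different genes had a median r of 0.07, and the 12 arrays share scaling and print layout.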

How the data were processed

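The deposited values were raw spot intensities on a linear scale, which per the methods the authors read from phosphor screens of nylon cDNA arrays without normalization between arrays. The series matrix held identical intensities (100% of values). Image software versions were not given in the sources used here. From the log2 intensities of an array its mean was subtracted, and the result was divided by the array's SD and multiplied by the mean SD (1.75), after the z-score transformation of the study. Position 25 of each of 384 print blocks was read as blank, and 95th percentiles of these spots gave the background. The blank spots stayed in the scaling, the fits, the SD of the z-fold and the shares of all clones. Of 9600 spots, 8496 carried 1 symbol, 21 several and 1083 none here. Group comparisons were fitted over all clones by limma (version 3.58.1, R 4.3.3), calling eBayes on lmFit results with its trend option, and two-sided p-values were adjusted by Benjamini-Hochberg with 0.05 as threshold. The fit was tested on simulated data first. Residual degrees of freedom were 7 over all times, 6 by arm and 5 within a time. Alternatives were median centring, quantile normalization, an offset of 16, leaving out dim clones, removal of print position medians, no intensity trend, leaving out each array, and pairing arrays by time and arm (added after the data were seen). Leaving out dim clones also left out the blank spots and spots with placeholder values, and kept 6815. All member clones are given. In each of the other lists the 2 genes with the smallest p in each direction (brightest clone) qualified for naming. Likeness was ranked by r, 2 clones a member. Members, lists and tests were chosen with earlier results of these data known. Precision is limited by the number of arrays.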

Additional observations from a re-analysis of the deposited data

Results flagged for a closer look

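For 5 of the 13 members, both pairs of 1 time lay on one side of 0 and both pairs of another time on the other, which singled them out for a closer look. The same held for 32.7% of all 9600 clones. The contrasts were added after the pair values were seen. ATF3 differed between BiC/4AP and Block by -0.62 with ActD and -0.47 without ActD at 60 min, and by 0.12 and 0.53 at 5 min, so that the difference at 60 min minus that at 5 min was -0.87 ± 0.33 (SE, limma adjusted p = 0.97). FOS gave -0.42 ± 0.30 for 60 min minus 5 min (adjusted p = 0.97) and -0.37 ± 0.30 for 30 min minus 5 min (adjusted p = 0.77). FOSL1 gave 0.49 ± 0.35 and NR4A1 gave 0.37 ± 0.32 for 60 min minus 5 min (adjusted p = 0.97 each). ARC gave -0.51 ± 0.34 for 30 min minus 5 min (adjusted p = 0.70). The 3 contrasts between times called 0 of 9600 clones by limma, with 370 clones (60 minus 5 min), 862 (30 minus 5 min) and 568 (60 minus 30 min) at an unadjusted p under 0.05. Among the members the smallest adjusted p was 0.55, for JUNB spot 320 at 30 min minus 5 min (-0.91 ± 0.42).

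MAFF lay above 0 in 3 of 3 pairs with ActD and in 0 of 3 without, a split between the arms in one direction or the other that 3.22% of all clones had, and the difference between the arms was 0.32 ± 0.28 (SE, limma adjusted p = 1).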

How the results depend on the processing

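By replicate number, no paired analysis was possible because all 12 arrays carry the same one. With the BiC/4AP and Block arrays of the same time and ActD arm paired as a block, a fit added after the data were seen, limma called 0 clones over all times, with ActD, without ActD and for the difference between arms (646, 250, 711 and 349 at an unadjusted p under 0.05), and the smallest adjusted p of a member was 0.66. For BiC/4AP minus Block no member clone was called under any alternative. Counts of all clones moved as follows. At 30 min against 5 min the 25 clones called became 46 with median centring, 85 with an offset of 16, 50 without dim clones, 1 with print position removed, 0 without the intensity trend and 0 to 38 without single arrays. At 60 min against 5 min leaving out single arrays gave 1053 to 2253, and 2 members remained called with print position removed. With single arrays left out, BiC/4AP called 0 to 2 clones without ActD, 0 to 7 at 5 min, 0 to 1162 at 30 min and 0 to 9 at 60 min, and 1 at 60 min with the offset. The offset put 9 member z-folds past 1.4, with 1 clone (FOSL2) past it in both arms at 5 min and 1 (HOMER1) at 60 min, and leaving out dim clones put 10 past it, with 1 (HOMER1) in both arms at 60 min. Leaving out dim clones kept 11 members. The shares of all clones past 1.4 under these alternatives are not given here, so these counts cannot be set against them.

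Signs turned only for differences that were not called. Without ActD, NR4A1 turned to 0.034 with median centring, 0.055 with quantile normalization, 0.036 without dim clones and 0.078 with print position removed, MAFF to 0.011 with quantile normalization, and JUNB spot 320 to -0.065 with print position removed. With ActD, FOSL2 turned to 0.046 with median centring and 0.024 with print position removed. Leaving out single arrays gave ranges across 0 without ActD for FOS (-0.21 to 0.0031), JUN spot 1486 (-0.063 to 0.32), ATF3 (-0.022 to 0.37), MAFF (-0.20 to 0.089), ARC (-0.12 to 0.15) and NR4A1 (-0.24 to 0.13), and with ActD for FOS (-0.18 to 0.071), FOSL1 (-0.18 to 0.12), FOSL2 (-0.24 to 0.061), JUN spot 9139 (-0.087 to 0.31), ARC (-0.36 to 0.12), NR4A1 (-0.027 to 0.20) and HOMER1 (-0.024 to 0.37). The causes were not tested. The dimmest members were JUNB spots 270 and 8661, both in the dimmest 25% of clones.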
